A study of Mus musculus with 4 samples.

Results

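INO80 peaks centred just upstream of a gene start were examined in ChIP-seq (chromatin immunoprecipitation and sequencing) data from mouse spermatocytes at early zygotene, when homologous chromosomes begin to pair. The members are the rows of the authors' reproducible peak set whose centre was placed -1000 to 0 bp from the transcription start site (TSS) of the nearest gene. There were 525 such peaks, 18.4% of the 2847 in the set (95% interval 17.0 to 19.9) and 22.9% of the 2297 peaks centred within 1 kb of a TSS. The other 1772 of these peaks were centred 1 to 1000 bp downstream of the TSS, inside the start of the gene, and serve for comparison. The 2 INO80 libraries and 2 input libraries came from mice of 1 cross, DBA/2J x C57BL/6J F1, with no mutant or transgene named in the labels. All mice had fertilysin for 7 days from 2 days after birth and retinoic acid at 9 days, and testis cells were taken 8 days later and enriched on 28% Percoll. Such enriched cells are a mixture, the number of animals per library is not stated in the sources used here, and no expression was measured, so the cell type could not be checked against markers. The p-value and the spread given for replicates therefore cover 2 libraries that may differ only technically, and dates in their deposited peak names differ.

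INO80 is the ATPase of a large complex that slides nucleosomes, the units of DNA wrapped on histones, and has been reported to exchange the histone variant H2A.Z. In yeast and mammalian cells it is known at the edge of the nucleosome-depleted region where RNA polymerase II begins transcription, next to the first nucleosome inside the gene and the one on its upstream side. Many mammalian promoters are CpG islands, stretches rich in the dinucleotide CG, and many start transcription in both directions. In bulk cells, a larger share of bound cells and more INO80 per bound cell cannot be told apart.

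The promoters of the 5 strongest members with an entry in the RefSeq promoter table (GRCm38.p6) are shown to let the CpG-rich sequence before their starts be read directly. Each runs 5′ to 3′ on the strand of the gene, with 250 bases before the annotated start and 50 after it, and capitals mark GC boxes (GGGCGG or its reverse complement CCGCCC), the letters bound by SP and KLF factors. Their places are chr4:89294930-89295229 on the plus strand for Gm12610, chr14:57057674-57057973 on the minus strand for Gja3, chr3:63295622-63295921 on the plus strand for Mme, chr9:72807024-72807323 on the plus strand for Prtg and chr16:95702157-95702456 on the plus strand for Ets2.
Gm12610: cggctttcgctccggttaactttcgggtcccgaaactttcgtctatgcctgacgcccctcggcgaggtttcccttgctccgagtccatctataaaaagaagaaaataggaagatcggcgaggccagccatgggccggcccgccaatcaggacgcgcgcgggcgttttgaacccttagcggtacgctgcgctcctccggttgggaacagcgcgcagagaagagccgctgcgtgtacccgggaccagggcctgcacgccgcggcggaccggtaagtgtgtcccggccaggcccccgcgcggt
Gja3: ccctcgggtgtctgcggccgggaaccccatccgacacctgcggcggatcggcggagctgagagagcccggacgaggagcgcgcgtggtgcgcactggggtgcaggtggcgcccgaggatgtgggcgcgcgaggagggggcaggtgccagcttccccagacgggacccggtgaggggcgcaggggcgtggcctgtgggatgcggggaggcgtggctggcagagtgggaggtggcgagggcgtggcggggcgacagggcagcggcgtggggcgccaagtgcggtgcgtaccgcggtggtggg
Mme: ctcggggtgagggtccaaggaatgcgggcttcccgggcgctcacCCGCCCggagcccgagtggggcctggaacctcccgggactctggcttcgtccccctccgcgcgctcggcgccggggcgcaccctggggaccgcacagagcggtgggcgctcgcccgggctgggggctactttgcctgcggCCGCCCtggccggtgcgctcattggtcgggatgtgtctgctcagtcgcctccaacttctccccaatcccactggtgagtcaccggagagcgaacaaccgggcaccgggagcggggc
Prtg: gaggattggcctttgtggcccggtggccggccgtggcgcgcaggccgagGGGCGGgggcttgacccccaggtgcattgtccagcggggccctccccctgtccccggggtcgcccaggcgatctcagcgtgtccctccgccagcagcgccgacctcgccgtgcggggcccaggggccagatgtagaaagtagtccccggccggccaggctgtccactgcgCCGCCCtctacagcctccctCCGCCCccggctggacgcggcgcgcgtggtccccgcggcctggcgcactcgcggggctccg
Ets2: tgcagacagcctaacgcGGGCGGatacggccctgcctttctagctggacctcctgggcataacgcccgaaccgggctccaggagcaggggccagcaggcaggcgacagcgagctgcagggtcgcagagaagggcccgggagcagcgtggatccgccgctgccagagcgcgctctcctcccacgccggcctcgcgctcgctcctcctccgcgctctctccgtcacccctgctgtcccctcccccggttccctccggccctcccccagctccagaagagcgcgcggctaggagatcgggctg
Before the start, CpG dinucleotides numbered 28 at Gm12610, 29 at Gja3, 27 at Mme, 24 at Prtg and 25 at Ets2, against a median of 10 over all protein-coding promoters of the table. GC boxes were less uniform, with 3 at Prtg, 2 at Mme, 1 at Ets2 and 0 at Gja3 and Gm12610.

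After Gm12610, the strongest members with a second gene start within 1 kb of the peak centre were Eef2k (chr7:120843350-120843649, plus strand) and Zfp664 (chr5:124862455-124862754, plus strand), shown as promoters that face another transcript. Fam53a (chr5:33629586-33629885, minus strand) and P2ry1 (chr3:61002535-61002834, plus strand) belong to the strongest downstream-centred peaks with an entry in the table and are shown for contrast.
Eef2k: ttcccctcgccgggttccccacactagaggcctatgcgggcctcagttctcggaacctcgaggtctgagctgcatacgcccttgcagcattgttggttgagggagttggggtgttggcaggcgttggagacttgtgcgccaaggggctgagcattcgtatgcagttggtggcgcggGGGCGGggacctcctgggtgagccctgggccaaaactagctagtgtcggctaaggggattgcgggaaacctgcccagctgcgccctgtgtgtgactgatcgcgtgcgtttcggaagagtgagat
Zfp664: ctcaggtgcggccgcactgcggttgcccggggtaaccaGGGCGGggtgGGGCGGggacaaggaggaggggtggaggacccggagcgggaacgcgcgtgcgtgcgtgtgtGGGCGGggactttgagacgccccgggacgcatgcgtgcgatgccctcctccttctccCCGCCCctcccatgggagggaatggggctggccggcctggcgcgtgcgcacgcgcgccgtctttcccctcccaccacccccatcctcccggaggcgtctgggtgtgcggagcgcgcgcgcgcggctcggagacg
Fam53a: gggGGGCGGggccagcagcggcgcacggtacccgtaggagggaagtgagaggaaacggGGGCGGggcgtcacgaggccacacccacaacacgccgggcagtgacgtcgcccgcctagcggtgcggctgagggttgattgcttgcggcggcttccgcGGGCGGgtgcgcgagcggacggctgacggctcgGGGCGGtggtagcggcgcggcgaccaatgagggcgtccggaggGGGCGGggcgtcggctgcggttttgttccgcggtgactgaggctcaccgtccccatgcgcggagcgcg
P2ry1: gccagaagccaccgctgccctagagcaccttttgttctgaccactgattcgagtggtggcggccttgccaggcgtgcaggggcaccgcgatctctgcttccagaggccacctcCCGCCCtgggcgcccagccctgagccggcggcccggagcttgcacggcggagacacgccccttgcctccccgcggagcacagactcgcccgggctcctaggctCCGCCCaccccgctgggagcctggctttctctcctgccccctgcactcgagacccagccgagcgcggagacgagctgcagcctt
Zfp664 held 28 CpG dinucleotides before its start and Eef2k 14, with 37 at Fam53a and 20 at P2ry1. Single promoters of the downstream-centred kind can therefore be as CpG-rich as members, and the difference described further on is one of medians.

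Peaks over microRNA genes formed a small group among the members, and their mature sequences, from the RefSeq microRNA table, are shown because the seed (bases 2 to 8, in capitals) determines which messenger RNAs a microRNA pairs with. These sets were chosen after the values were seen.
mmu-miR-9-5p: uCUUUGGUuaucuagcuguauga
mmu-miR-148a-3p: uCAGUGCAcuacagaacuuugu
mmu-miR-193a-3p: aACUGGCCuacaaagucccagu
mmu-miR-191-5p: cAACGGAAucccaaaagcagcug
mmu-miR-425-5p: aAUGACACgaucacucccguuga
mmu-miR-219a-5p: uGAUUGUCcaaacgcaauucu
Each of these has a seed of its own. The last is made from 2 hairpins with identical mature sequence, Mir219a-1 at chr17:34024983-34025092 and Mir219a-2 at chr2:29845631-29845727, and each lay under a different member.

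Depth is given by the authors in rounded figures. The INO80 libraries had 134500000 and 125200000 reads, of which 98100000 and 82600000 mapped uniquely, and the inputs had 70400000 and 39600000 uniquely mapped reads. The inputs have no peak list, so no member has a background value of its own beyond the deposited fold, the enrichment of a peak from the authors' peak caller. No source used here names the control for it, and the labels list a library kit for INO80 samples that they do not list for inputs. Of the 525 members, 522 were overlapped by a peak of both replicate lists by at least 1 bp. Fndc1 and Hist2h3c1 had none in replicate 1, and Rmnd1 had none in replicate 2. At a −log10 q of at least 3 in both lists, 496 members (94.5%) and 1678 downstream-centred peaks (94.7%) were kept.

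Upstream-centred peaks lay close to the TSS. Their median distance was -163 bp, with quartiles at -334 and -76 bp and a range of -984 to 0 bp. Centres became sparser away from the start. Within 99 bp of it lay 169 members, and 71 lay 500 bp or farther upstream. The last 50 bp before the start held 88 centres, against 168 between 300 and 350 bp inside the gene, where the number per 50 bp was highest. At the edges of the window, E030030I06Rik was the outermost member at -984 bp and Slc6a20a, a transporter of proline, the innermost at 0 bp. The nearest peaks outside were Cdk6, the kinase that works with D-type cyclins, at -1013 bp and Mpdz, Nin and Sh2d5 at 1 bp. Members near 0 bp were thus separated from their downstream-centred neighbours by a few bases.

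**Figure D1:**
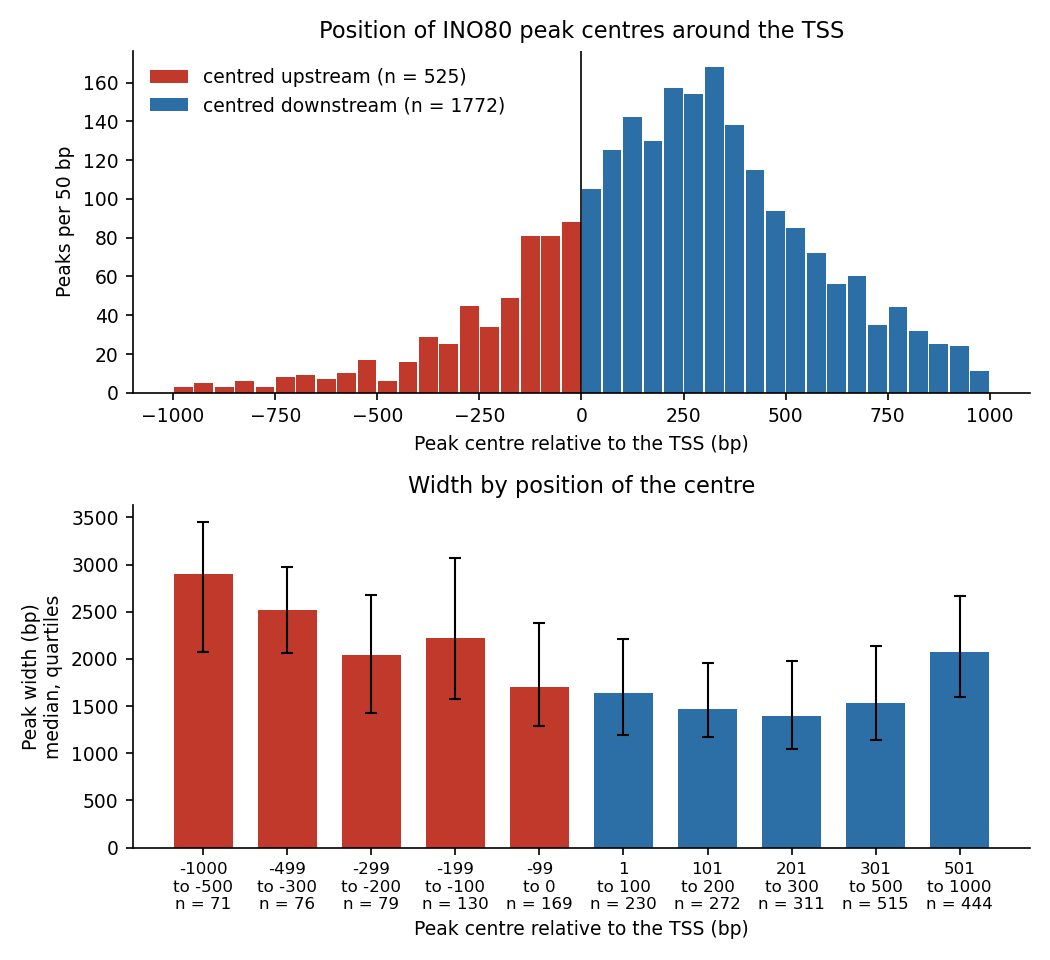
Top, number of INO80 peaks (vertical axis) per 50 bp of distance from peak centre to TSS (horizontal axis, bp), for peaks centred upstream (red) and downstream (blue). Bottom, median peak width in bp with quartiles (bars and whiskers) by position of the centre, where the outermost upstream bin reaches 2897 bp and the bin at 201 to 300 bp is lowest at 1392 bp.

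Members were wider than downstream-centred peaks in the reproducible set, by less in the replicates' own lists. The median width was 2130 bp (quartiles 1504 and 2869) in upstream-centred peaks and 1636 bp (quartiles 1209 and 2290) in downstream-centred peaks, a difference of 494 bp. Own peaks in single lists differed by 50.0 bp in replicate 1 and 281.5 bp in replicate 2. The widest medians of the upstream side lay far from the start, with no steady order between -300 and -100 bp. The median was 2897 bp in members centred at -1000 to -500 bp, 2520 bp at -499 to -300 bp, 2046 bp at -299 to -200 bp, 2219.5 bp at -199 to -100 bp and 1703 bp at -99 to 0 bp. Members nearest the start were close in median width to the 1641.5 bp of peaks centred 1 to 100 bp downstream. Farther into the gene the median was 1469.5 bp at 101 to 200 bp, 1392 bp at 201 to 300 bp, 1536 bp at 301 to 500 bp and 2075.5 bp at 501 to 1000 bp.

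The widest members included genes of developmental regulators. Msx1, a homeobox transcription factor of craniofacial development, had the widest at 8522 bp (chr5:37820753-37829274). Tnrc18 measured 8158 bp, and Pdgfa, a platelet-derived growth factor ligand, 6470 bp. These are widths in the reproducible set. The own peak at Msx1 was 1256 bp wide in replicate 1 and 4300 bp in replicate 2. Own peaks measured 6425 and 7922 bp at Tnrc18, and 2290 and 6343 bp at Pdgfa. At the other end stood Ccne1, cyclin E1, which activates CDK2 at the start of DNA replication, at 597 bp (chr7:38107744-38108340). Tesmin, a testis-expressed metallothionein-like protein, measured 650 bp, Mir7036b 706 bp and Rpn2, a subunit of the oligosaccharyltransferase, 715 bp. The deposited fold was 3.88 in replicate 1 and 4.88 in replicate 2 at Msx1, and 2.96 and 3.94 at Ccne1.

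Being centred upstream rarely meant lying wholly upstream. Of the members, 518 of 525 (98.7%, 95% interval 97.3 to 99.5) extended over the TSS, as did 1707 of 1772 downstream-centred peaks (96.3%, interval 95.4 to 97.2). This share depends on width by construction. A member reached a median of 1285 bp upstream of the TSS and 823 bp into the gene, whereas a downstream-centred peak reached 488.5 bp upstream and 1154 bp into the gene. These extents follow from the distance that defines the sides and from width, and describe the peaks without a test. The 7 members that stopped short were Ccne1, Eml1, Malat1, Ngdn, Sp4, Usp34 and Zfp687, named after their values were seen. Sp4, a GC-box-binding transcription factor, was the farthest of them with a 1180-bp peak centred at -960 bp. Malat1, an abundant nuclear long non-coding RNA, had a 1041-bp peak at -651 bp.

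The next comparison asked whether the upstream position was seen in each replicate. The centre of the replicate's own peak, that with the longest overlap with the member, was set against the same TSS. This needs the strand of the gene, which was known for 499 members. In replicate 1, 268 of 497 members (53.9%, interval 49.4 to 58.4) had their own centre at or upstream of the TSS. In replicate 2 the count was 396 of 498 (79.5%, interval 75.7 to 83.0). Both replicates placed it upstream for 246 of 496 members (49.6%), replicate 2 alone for 148 (29.8%), replicate 1 alone for 21 (4.23%) and neither for 81 (16.3%). On the downstream side, 1567 of 1727 downstream-centred peaks (90.7%) had a downstream centre in both lists. These shares are not matched for distance, and the median distance was 324 bp for downstream-centred peaks against -163 bp for members. At 1 to 100 bp downstream, 26.5% of own centres were upstream in replicate 1 and 14.3% in replicate 2.

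**Figure D2:**
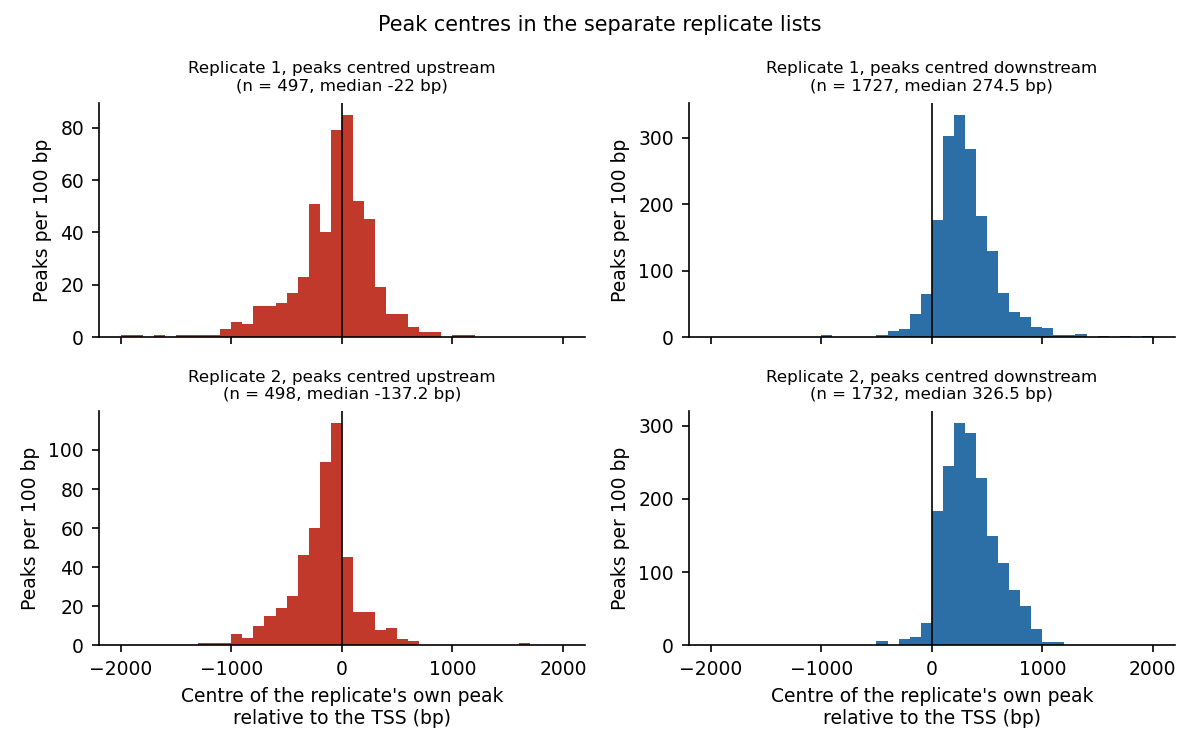
Distance from the TSS to the centre of each replicate's own peak (horizontal axis, bp, values beyond the axis drawn at its ends) against peaks per 100 bp (vertical axis), for peaks centred upstream (left, red) and downstream (right, blue) in the reproducible set. The upstream-centred peaks have a median of -22 bp in replicate 1 and -137 bp in replicate 2, and the downstream-centred ones 274.5 and 326.5 bp.

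The outermost members kept their side most often and the innermost least, with no steady order between. At -1000 to -500 bp, 73.2% were upstream in replicate 1 and 95.8% in replicate 2, whereas at -99 to 0 bp the shares were 40.3% and 69.6%. In the same replicate order they were 52.9% and 78.6% at -499 to -300 bp. They were 67.1% and 83.8% at -299 to -200 bp, and 53.2% and 80.8% at -199 to -100 bp. All overlapping replicate 1 peaks together spanned a median of 50.6% of a member and 58.7% of a downstream-centred peak. Those of replicate 2 spanned 92.9% and 93.3%. Own peaks had a median width of 972 bp at members and 922 bp at downstream-centred peaks in replicate 1, and 1745.5 bp and 1464 bp in replicate 2.

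Single genes show both situations. At Gm12610, a non-coding RNA gene, the own centres lay at -212.5 bp in replicate 1 and -214 bp in replicate 2, next to -192 bp in the reproducible set. For Prkar2b, a regulatory subunit of protein kinase A, they lay at -332 and -269 bp, with -276 bp in the reproducible set. Both genes have an upstream centre in every list. Rai1, a retinoic acid-induced nuclear protein, had own centres at 29 bp in replicate 1 and -633.5 bp in replicate 2. At Dennd5b, a DENN-domain protein, and at Msx1 both own centres were downstream, at 515 and 480.5 bp and at 443 and 1635 bp. The 6235-bp and 8522-bp intervals of these genes in the reproducible set were centred at -219 and -428 bp. Other named members also had both own centres downstream. They include Ets2 (105 and 43.5 bp), Hacd1 (426 and 8 bp), Dgka (50 and 161 bp) and Phf19 (183 and 30.5 bp). Eya4 (227.5 and 198 bp) and Kdr (380.5 and 286.5 bp) are further ones. Across members this held for 81 of 496, and 246 had both own centres upstream. Genes named below are members by the reproducible set alone.

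Fold enrichment did not separate upstream-centred from downstream-centred peaks. The median deposited fold was 3.73 at members and 3.70 at downstream-centred peaks in replicate 1, and 4.98 and 5.05 in replicate 2. The difference in median log2 fold, members minus downstream-centred peaks, was 0.01 in replicate 1 and -0.02 in replicate 2, so the replicates differed in sign. An exact two-sided sign-flip permutation test over the 2 libraries gave p = 1, where the smallest p that 2 libraries allow is 0.5. Replicate 2 had the higher fold at 504 of 522 members (96.6%) and at 1701 of 1767 downstream-centred peaks (96.3%). That shift between libraries, a median of 0.43 on the log2 scale on both sides, was larger than either difference between the sides.

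**Figure D3:**
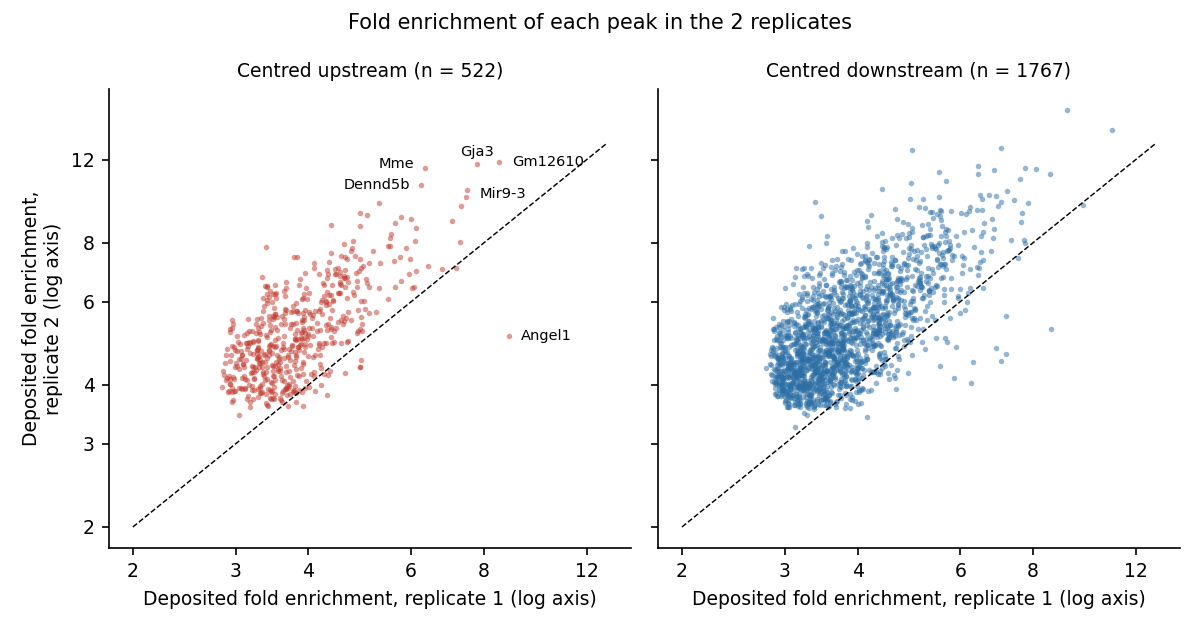
Deposited fold enrichment in replicate 1 (horizontal, log axis) and replicate 2 (vertical, log axis) for each peak centred upstream (left, 522 peaks) and downstream (right, 1767 peaks), with the line of equal fold dashed. Both clouds lie mostly above the line, and Angel1, with 8.81 in replicate 1 and 5.08 in replicate 2, is the farthest member below it.

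The strongest members were a mixed set of genes. Gm12610 led with a fold of 8.50 in replicate 1 and 11.9 in replicate 2 (chr4:89293971-89296005). Its start lies 561 bp from that of Cdkn2a, on the opposite strand, the gene of the cell-cycle inhibitors p16 and ARF, and the peak covers both starts. Gja3, a connexin of gap junctions in the lens, had 7.78 and 11.7 (chr14:57056641-57058919), and Mme, the membrane peptidase neprilysin, 6.33 and 11.5 (chr3:63294123-63297373). Each was higher in replicate 2 than in replicate 1, as were most members. Mir9-3, a source of the neural microRNA miR-9, had 7.49 and 10.3. Prtg, a receptor of the immunoglobulin family in the early embryo, had 7.46 and 10.02, and Ets2, a transcription factor of the ETS family, 7.32 and 9.58. Dennd5b had 6.23 and 10.6, Rai1 7.04 and 8.90, Hacd1, a dehydratase of fatty acid elongation, 7.28 and 8.02, and Prkar2b 6.01 and 8.99. For scale, the strongest downstream-centred peaks were Fgfr1, a receptor for fibroblast growth factors, with 10.9 and 13.9, and Sox18, a vascular transcription factor, with 9.15 and 15.3.

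Replicates differed most at a few members. Barx2, a homeobox factor, had a fold of 3.38 in replicate 1 and 7.85 in replicate 2, Stc2, a secreted stanniocalcin, 3.33 and 6.76, and Nefl, the light neurofilament chain, 4.37 and 8.73. In the other direction stood Angel1 with 8.81 and 5.08, Auts2 with 4.30 and 3.81, and Grtp1 with 4.91 and 4.36. On the log2 scale of replicate 2 over replicate 1, Angel1 stood at -0.79, apart from Auts2 at -0.18 and Grtp1 at -0.17. The weakest members by mean fold were Gm10433, Tesmin, Fam222a and Ctdspl, with folds of 2.91 to 3.04 in replicate 1 and 3.46 to 3.86 in replicate 2.

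Because promoters can serve a pair of genes, a second gene start within 1 kb of the peak centre was looked for in the RefSeq promoter table, at the 375 members and 1307 downstream-centred peaks whose deposited TSS has an entry there. A second start was present at 67 members (17.9%, interval 14.1 to 22.1) and at 209 downstream-centred peaks (16.0%, interval 14.0 to 18.1). Nearly all lay on the opposite strand, at 65 members (17.3%) and 200 downstream-centred peaks (15.3%). The intervals overlap for both shares. Opposite starts of a protein-coding gene were found at 30 members (8.00%, interval 5.46 to 11.2) and 68 downstream-centred peaks (5.20%, interval 4.06 to 6.55). The peak centre lay inside the opposite transcript at 39 members (10.4%) and 62 downstream-centred peaks (4.74%), which follows in part from its position before the assigned gene. At 45 members (12.0%) the assigned gene had another listed start farther upstream within 1 kb of the centre, so that the centre was downstream of that start.

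Members with an opposite start were narrower than those without. Their median width was 1799 bp (n = 65) against 2112 bp (n = 310), with median folds of 3.84 and 5.15 against 3.65 and 4.91 in replicates 1 and 2. Eef2k, the kinase that inactivates elongation factor eEF2, had a fold of 4.91 in replicate 1 and 8.69 in replicate 2, with the non-coding Gm36449 starting 89 bp away. Zfp664, a zinc finger protein, had 6.08 and 6.45 and faces Ccdc92 at 484 bp. The pair Zbtb1 and Zbtb25, both BTB zinc finger genes, starts 960 bp apart under a 2732-bp peak with 5.76 and 6.65. Sh3bp5 and Dgka, a diacylglycerol kinase, face non-coding genes at 866 and 870 bp. Whether INO80 belongs to one gene of such a pair cannot be read from a peak that covers both starts.

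CpG density differed between the sides before the start and not at it. In the 250 bases before the start, members had a median of 24 CpG (quartiles 17 and 32, n = 375), downstream-centred peaks 19 (quartiles 13 and 26, n = 1307) and all protein-coding promoters 10 (quartiles 3 and 19, n = 21263). Close to the start the sides were alike. Members averaged 5.44 ± 2.94 CpG (SD) at bases -50 to -1 and downstream-centred peaks 5.36 ± 2.72, and at bases 1 to 50 the means were 5.39 ± 2.64 and 5.52 ± 2.74. Farther out they parted, with 3.92 ± 2.74 at members and 2.79 ± 2.42 at downstream-centred peaks at bases -250 to -201. The median ratio of observed to expected CpG was 0.840 at members, 0.771 at downstream-centred peaks and 0.530 over all protein-coding promoters, and the median GC content 69.2%, 65.2% and 55.6%.

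**Figure D4:**
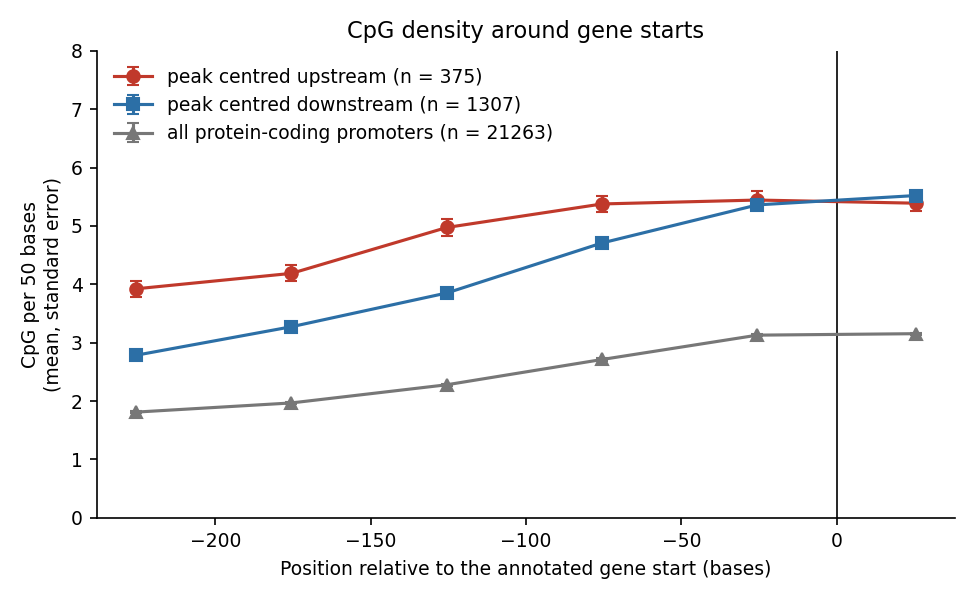
Mean CpG dinucleotides per 50 bases (vertical axis, whiskers of 1 standard error over promoters) by position relative to the annotated gene start (horizontal axis, bases), for promoters under upstream-centred peaks (red circles, n = 375), under downstream-centred peaks (blue squares, n = 1307) and all protein-coding promoters (grey triangles, n = 21263). The red and blue lines meet at the start and stand 3.92 against 2.79 apart at bases -250 to -201.

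The difference followed the position of the centre and did not begin at the TSS. Median CpG was 23 to 25 in each of the bins of members between -1000 and 0 bp. It was 23 in peaks centred 1 to 100 bp and 101 to 200 bp downstream, 19 at 201 to 300 bp and 18 beyond. Peaks of both sides near the start thus shared CpG-rich sequence before it, and the peaks centred deeper in the gene had less. Promoters share base composition by family and region, so they are described without a test.

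Short motifs were searched in the 300-base promoters on both strands, and each is spelled out by its letters. The GC box GGGCGG occurred in 77.3% of member promoters, 74.6% of downstream-centred ones and 46.2% of all protein-coding promoters. The TATA box TATAAA was found in 5.87%, 5.97% and 12.6%. The NF-Y box CCAAT was found in 30.7%, 34.5% and 38.2%, the E-box CACGTG in 8.53%, 10.6% and 7.84%, and the ETS site CCGGAAG in 7.73%, 9.18% and 11.6%. For these 5 motifs the intervals of the sides overlap. The CRE TGACGTCA, the cyclic AMP response element, was in 2 of 375 member promoters (0.533%, interval 0.0647 to 1.91) and 35 of 1307 downstream-centred ones (2.68%, interval 1.87 to 3.71), with intervals that overlap narrowly. Over all protein-coding promoters it was in 2.23%, above the interval of the members. The NRF1 motif GCATGCGC occurred in 2.40% of member promoters, 4.21% of downstream-centred ones and 3.52% of all protein-coding promoters. In the same order, the YY1 site AAGATGGC was in 1.87%, 1.99% and 3.05%, and the ZNF143 core ACTACAN in 4.53%, 7.27% and 10.3%. For these the intervals of the sides again overlap. At ZNF143 the intervals of members (2.66 to 7.16) and downstream-centred peaks (5.92 to 8.81) both lie below the share of all protein-coding promoters. Both intervals also lie below that share at the TATA box, the NF-Y box and the ETS site. The member intervals there are 3.71 to 8.75, 26.0 to 35.6 and 5.24 to 10.9. At the GC box both lie above that share. A match describes letters in this window and not a bound factor.

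The assigned gene was non-coding for 32 of 525 members (6.10%, interval 4.21 to 8.50) and 63 of 1772 downstream-centred peaks (3.56%, interval 2.74 to 4.53), with overlapping intervals. MicroRNA hairpins of the RefSeq table lay under 14 members (2.67%, interval 1.46 to 4.43) and 12 downstream-centred peaks (0.677%, interval 0.350 to 1.18). These members covered 17 of the 1005 hairpins in the table. Members are also wider, and hairpin overlap was not compared at equal width. The assigned gene was a microRNA gene for 9 members, 10 downstream-centred peaks and 14 peaks farther than 1 kb from a TSS. The TSS of such a gene is the annotated start of its hairpin, which is cut from a longer primary transcript, so a peak over the promoter of that transcript is counted as upstream of the hairpin.

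Mir9-3, whose miR-9-5p sequence is shown above, had the strongest of these peaks, 2241 bp wide, centred at -158 bp and upstream in both lists at -265 and -451.5 bp. Its host gene Mir9-3hg had a member of its own with folds of 3.98 and 6.08. Mir148a, whose seed CAGUGCA is that of the miR-148 and miR-152 family, had folds of 5.52 and 7.88 at a centre of -710 bp, and its own centres were at -786 and -732 bp. Mir193a had 4.44 and 6.85 at -740 bp. These 3 were centred upstream in each replicate. Mir425 and Mir191, which are transcribed together, lay under 1 peak of 4282 bp with 4.79 and 6.19. Mir219a-2 lay under a 1070-bp peak with low folds of 3.05 and 3.94. The other miR-219a hairpin, Mir219a-1, lay under the 1351-bp member assigned to Ring1, with 4.68 and 5.70.

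Over all genes, 488 of 21887 protein-coding genes had an upstream-centred peak (2.23%) and 1692 had a downstream-centred one (7.73%). Both figures are the background for the gene lists that follow. Of 747 distinct genes found from 17 lists, 31 had an upstream-centred peak (4.15%) and 100 a downstream-centred one (13.4%). Among the 130 with a peak on either side, 23.8% had an upstream-centred peak, near the 22.9% over all peaks within 1 kb. Both shares of the listed genes stood above the background, in a ratio close to that of all peaks.

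Of 86 genes of Wnt, Notch, hedgehog and BMP signalling, 8 had an upstream-centred peak (9.30%) and 27 a downstream-centred one. The 8 were Bmp6, Fzd10, Gli3, Ptch1, Smad3, Tgfbr2, Wnt2 and Wnt3, which include ligands, receptors and effectors. Gli3, the hedgehog transcription factor, had the highest folds of them, 5.29 in replicate 1 and 9.69 in replicate 2. Wnt3, a ligand, had 4.59 and 5.60, Bmp6, a ligand of the TGF-beta family, 3.42 and 6.13, and Tgfbr2, a receptor, 3.80 and 5.41. Both own centres were downstream at Gli3 (78.5 and 207 bp) and Bmp6 (282 and 399 bp). They were both upstream at Fzd10, Wnt2 and Wnt3, and on opposite sides at Ptch1, Smad3 and Tgfbr2. Among 79 developmental transcription factors 5 had an upstream-centred peak (6.33%) and 18 a downstream-centred one. Isl1, a LIM homeobox factor, had 7.16 and 7.07, Tbx3, a T-box factor, 4.15 and 4.77, Msx1 3.88 and 4.88, and Foxl2, the ovarian forkhead factor, 3.28 and 5.27. Sox2 was the other.

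Genes of spermatogonia and of the retinoic acid response were on the list because these mice were given retinoic acid. Of 45 genes, 5 had an upstream-centred peak (11.1%) and 15 a downstream-centred one. Rara and Rarg, receptors for retinoic acid, had folds of 3.94 and 5.76 and of 3.83 and 4.19 in replicates 1 and 2. Rdh10, which makes the precursor retinaldehyde, had 4.11 and 5.74, Ccnd1, cyclin D1, 3.64 and 6.18, and T, brachyury, 3.97 and 5.01. The Ccnd1 peak was 6453 bp wide and centred at -806 bp, with upstream centres in both lists. At Rara the own centres were downstream, at 332.5 and 390 bp.

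Cell cycle and Polycomb genes were also represented. Of 44 cell cycle genes 5 had an upstream-centred peak (11.4%) and 8 a downstream-centred one. With centres limited to -500 to 0 bp, 2 of these 5 remained. Cdkn1b, the inhibitor p27, had folds of 4.66 and 6.12, Mxd4, a MAX partner that opposes MYC, 4.64 and 5.55, and E2f3, an S-phase transcription factor, 4.21 and 4.81. Ccnd1 and Ccne1 were the others. Of 36 Polycomb genes 4 had an upstream-centred peak (11.1%) and 5 a downstream-centred one. Pcgf2 had 4.38 and 6.53, Ring1, the ubiquitin ligase subunit, 4.68 and 5.70, Cbx2, the subunit that binds trimethylated histone H3, 3.79 and 5.12, and Phf19, a partner of the other Polycomb complex, 3.76 and 3.89. With 5 or fewer genes a list, the exact intervals are wide, 3.11 to 26.1% for Polycomb.

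Meiosis and housekeeping lists held almost no members. No upstream-centred peak was found for 29 genes of meiotic recombination, 27 of synapsis and cohesion, 38 of excision and mismatch repair, 32 of other ATP-dependent remodellers, 40 of the spliceosome, 35 of the proteasome, 76 cytosolic ribosomal protein genes or the 16 INO80 complex genes. A count of 0 allows a share of up to 3.95% in the ribosomal list and up to 18.8% in the INO80 complex if up to 3 counts are taken as the limit, with exact upper bounds of 4.74% and 20.6%, so a share at the background of 2.23% was not detectable. Downstream-centred peaks at the same genes numbered 2, 2, 4, 5, 2, 1, 1 and 0. Among 49 genes of double-strand break and Fanconi repair, Xrcc3, a protein of homologous recombination, was the 1 member, with 4.55 and 4.91. It faces Zfyve21, whose start is 290 bp away. Mrpl12 was the 1 member among 76 mitochondrial ribosome genes, with 3.61 and 3.88. The authors' curated meiotic list had 0 of 140 genes with an upstream-centred peak, which allows a share of up to 2.14% by the limit of 3 counts and 2.60% by the exact bound, and 7 with a downstream-centred one.

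Markers of somatic testis cells were counted because such cells can remain after Percoll. Sertoli cell markers had 2 of 24 genes with an upstream-centred peak (8.33%, interval 1.03 to 27.0). They were Aard, with 4.87 and 5.20, and Kitl, the ligand of the KIT receptor, with 3.95 and 4.88. A downstream-centred peak was found at 4 others, Dmrt1, Inhbb, Sox9 and Wt1. Of 28 other somatic markers Kdr, an endothelial receptor, was the 1 member (3.57%, interval 0.0904 to 18.35), with 3.27 and 4.54. Downstream-centred peaks lay at 4 of them, Egfl7, Fdx1, Flt1 and Scarb1. Both intervals hold the background of 2.23%. Occupancy does not measure expression, and the part of somatic cells in these peaks was not tested.

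Of the 81 genes the authors selected from these peaks, 11 had an upstream-centred peak and 64 a downstream-centred one, and since they were chosen near peaks they are not independent of them. The 11 were Ccne1, Cecr2, Chrna4, Cyren, Eya4, Hmgb1, Pold2, Satb1, Xrcc3, Zbtb1 and Zbtb7a. Eya4, a phosphatase and transcriptional co-activator, had 4.52 and 6.62, and Satb1, a chromatin organiser, 4.42 and 5.20. Upstream-centred peaks made up 31.8% of the genes with a peak within 1 kb under the keyword Transcription regulation in the authors' deposited table (107 of 337, interval 26.8 to 37.0). They made up 32.1% under DNA-binding (97 of 302), 34.3% under negative regulation of transcription by RNA polymerase II (59 of 172, interval 27.2 to 41.9) and 28.2% under Developmental protein (60 of 213, interval 22.2 to 34.7, which holds 22.9%). The broad terms Phosphoprotein, with 24.0% (276 of 1149), and protein binding, with 24.1% (154 of 640), stood near the 22.9% over all peaks within 1 kb. These terms share genes, and a gene with peaks of both kinds was counted as upstream.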

How the data were processed

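INO80 ChIP-seq and input were analysed from the authors' processed files. Tools listed per the submitters' processing notes, with no role or setting, are MACS2 2.2.7.1, deepTools 3.4.3, BWA, fastp, SAMtools 1.11 and Picard 2.21.2, and the build is given as mm10, that is GRCm38. Reads per library were deposited as rounded numbers. Each INO80 replicate had a deposited broad peak list with a fold enrichment ratio, a −log10 p, a −log10 q and a score (10 times the −log10 q, truncated). The deposited set of both replicates, titled as below an IDR of 0.05, gives position, nearest gene, annotation class and distance of the peak centre to the TSS, with no signal. The authors' functional table gives a fold and an adjusted p-value per term, used only to take its 10 leading terms. Annotation enrichment tables were not used.

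All members carry the class promoter-TSS, which follows from the position. A replicate fold is that of the strongest overlapping peak (at least 1 bp). Own centres, ends and widths are those of the peak with the longest overlap. Strand came from the RefSeq promoter table of GRCm38.p6 (410 of 525 members and 1371 of 1772 downstream-centred peaks) or from the nearer end of the gene. The TSS was placed from the peak centre, the deposited distance and the strand. A listed start within 5 bp of it was found for 375 members and 1307 downstream-centred peaks. Intervals are exact 95% Clopper-Pearson and cover counting error only. Peaks and promoters are not replicates, so no p was computed over them, and the log2 fold difference was tested over the 2 INO80 libraries. Python 3.11.15, pandas 2.3.3, numpy 2.4.6, scipy 1.17.1 and matplotlib 3.10.9 were used, and the overlap and strand steps were tested on simulated peaks. Members, lists and motifs were chosen with earlier results of these data known. Genes were named by rule: the 10 strongest, 4 widest and 4 narrowest members, 3 at each window end and 3 outside each, the 3 highest and 3 lowest replicate ratios, up to 6 with a second start and up to 4 per list by mean fold. An item that this rule names is not reported here. The genes beyond these were named after their values were seen: those of the microRNA paragraphs, the weakest members, members not reaching the TSS or without a replicate peak, and further listed genes.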

Additional observations from a re-analysis of the deposited data

How the results depend on the processing

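The number of members stayed within 1.5 times of 525 under each of 3 narrower or stricter settings, from 356 (centres at -1000 to -100 bp) to 496. The width difference of 494 bp, upstream-centred minus downstream-centred, was 693.5 bp for centres at -1000 to -100 against 100 to 1000 bp. In the lists of single replicates it was 50.0 to 281.5 bp, so that without replicate 2 it fell to 50.0 bp. Over bins of equal distance on both sides, added after the data were seen, it was 652.9 bp. The log2 fold difference of -0.0046 turned to 0.0148 for centres at -500 to 0 against 1 to 500 bp, and leaving out a replicate gave -0.0206 to 0.0113. The share reaching the TSS was 99.8% at -500 to 0 bp and 86.1 to 97.8% in single replicates. A second start was found at 11.7% of members within 500 bp, at 8.53% for protein-coding genes only and at 24.9% for either end of any gene of the gene table. Over both replicate lists 66.7% of own centres lay upstream, 53.9 to 79.5% with a replicate left out and, as an alternative added after the data were seen, 72.3% for members centred at -100 bp or farther. The difference in CpG, 1.62 percentage points of dinucleotide steps, was 1.50 in the outer windows and, in a further alternative added later, 1.48 within quartiles of width. Listed genes with an upstream-centred peak numbered 31, and 25 with centres at -500 to 0 bp. Of 34 alternatives in all, 21 left the value within the spread or interval of the reported one, within 1.5 times of it for counts or, for the fold, of the same sign. No paired analysis was possible because the inputs have no peak list to pair with INO80 by replicate number, and the fold difference between the sides was itself taken within each INO80 library. Only 2 libraries limit each statement on replicates. The dates in their deposited peak names differ, and what these dates mark is not stated in the sources used here. Replicate cannot be told apart from whatever they mark.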

Other observations

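By chromosome, the share of peaks within 1 kb of a TSS that were centred upstream ranged on the autosomes between 14.7% on chromosome 18 (11 of 75, 95% interval 7.56 to 24.7) and 31.9% on chromosome 10 (36 of 113, interval 23.4 to 41.3), with 22.9% over all. These extremes of 19 autosomes have overlapping intervals and were not tested. On the X chromosome 4 of 12 such peaks were centred upstream, at Cited1, a transcriptional co-activator, Ddx3x, an RNA helicase, Shroom2 and Tbl1x. Cited1 had the highest fold in replicate 2 of these, 6.79, with 4.61 in replicate 1.

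Peaks of both kinds were assigned to 7 genes, Hist1h2be, Kctd1, Oxr1, Ptch1, Rai1, Rbms1 and Sema6d. The paired peaks do not overlap, and their deposited distances refer to different starts of the gene. For Rai1 the upstream-centred peak had folds of 7.04 and 8.90 in replicates 1 and 2, and the downstream-centred peak 3.61 and 5.50. For Rbms1 they were 3.64 and 4.76 for the upstream-centred peak, and 4.81 and 4.83 for the downstream-centred one. Ptch1, the hedgehog receptor, had a 5776-bp peak centred at -260 bp and a 2299-bp peak at 343 bp.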
